A study of Mus musculus with 8 samples.

Results

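The collagen genes encode the alpha chains of the collagens, the main structural proteins of the extracellular matrix. They were taken here as the protein-coding genes whose mouse symbol consists of Col, a number, the letter a and a number, after Ensembl identifiers had been mapped to symbols. The pattern found 44 genes among the 55416 gene identifiers of the count files, of which 11 encode fibrillar chains, 8 encode chains of basement membrane collagens and 25 encode other chains. Collagen chains are hydroxylated and folded into a triple helix in the endoplasmic reticulum, with the chaperone Hsp47 at hand, and are then secreted, trimmed and cross-linked. In the lung, collagens I, III and V build the fibrils of vessel walls, airways and septa, collagen IV forms the sheet between alveolar epithelium and capillary endothelium, and collagen VI forms beaded filaments beside the fibrils. Fibroblasts are the best known source of fibrillar and type VI chains, whereas endothelial and epithelial cells make much of the type IV network.

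Lung tissue, taken from a single side per animal, was sequenced from female C57BL/6J mice (C57BL/6 in the sample labels) aged 6 to 8 weeks, with 1 mouse per library, so that the tests measure the spread between mice. Control mice (n = 3, mice 1, 2 and 4) received DMSO and then saline. LPS mice (n = 3, mice 1, 6 and 7) received 35 mg/kg of lipopolysaccharide, a component of the bacterial outer membrane that causes endotoxin shock. Dual-treated mice (n = 2, mice 2 and 5) received 10 mg/kg of YW3-56, an inhibitor of the protein arginine deiminases, shortly before the same dose of LPS, and lungs were taken at 24 h. No group received YW3-56 alone, and the study's methods name no DMSO vehicle for the LPS mice, so the effects of compound and vehicle cannot be told apart. The libraries held between 19061949 and 20908608 counts each. Levels are given as CPM, the counts of a gene per 1000000 counts of its library after scaling by trimmed mean of M values (TMM), always in the order of the mouse numbers above. A gene was called higher or lower where its adjusted p in edgeR's quasi-likelihood test was under 0.05 across 18560 genes, and changes are log2 fold changes ± SE.

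Among the LPS libraries, those of mice 6 and 7 stood apart by markers of squamous epithelium and skeletal muscle, whose source was not tested. For each marker list, the gene that led it is the most abundant by mean CPM over the 8 mice. The 8 squamous epithelium markers, led by Krt13, summed to 6.56, 12.2 and 12.5 CPM in control, 0.771, 689 and 1946 in LPS and 11.7 and 23.9 in dual-treated mice, and 6 of the 8 were higher in LPS than in control mice. That number was 2 without LPS mouse 6 or 7, and 0 without both. The 6 skeletal muscle markers, led by Acta1, summed to 8.17, 18.2 and 12.7 CPM in control, 15.9, 434 and 1158 in LPS and 4.27 and 5.75 in dual-treated mice, and all 6 were higher in LPS than in control mice, against 0 without mice 6 and 7. LPS mouse 1 was below every control mouse by the squamous sum and within the control range by the muscle sum. In it and in the control mice, the squamous markers Dsg3 and Sprr3 were at 0. Collagen changes were therefore also taken with mice 6 and 7 left out, in which case the single LPS mouse is assumed to vary like the other groups. The part of the squamous and muscle transcripts in the collagen results was not tested beyond that.

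Of the 44 collagen genes, 38 had enough counts to be tested, and the other 6 (Col9a1, Col9a2, Col10a1, Col11a1, Col19a1 and Col24a1) never exceeded 13 counts in a library. In LPS against control lungs, 11 of the 38 were higher, where 32.6% of all genes tested were higher, and 18 were lower, where 33.9% of all genes were lower. The median log2 fold change of the collagen genes was -0.37, beside -0.01 over all genes tested. In dual-treated against LPS lungs 14 collagen genes were higher (31.7% of all genes) and 5 were lower (27.4% of all genes), with a median of 0.26 beside 0.06 over all genes. In dual-treated against control lungs 4 were higher (9.13% of all genes) and 3 were lower (7.02% of all genes), with a median of 0.01 beside 0.00. Without dual-treated mouse 5 these were 7 and 9 genes, and without any 1 control mouse or dual-treated mouse 2 none was lower in edgeR, with 4 to 7 lower at an unadjusted p under 0.05 and 4 lower in DESeq2 on all mice. In LPS lungs the share of higher calls among collagens, 28.9%, was near that of all genes, and the share of lower calls, 47.4%, was above it. This difference was not tested and refers to the fit on all mice. Without LPS mice 6 and 7 the collagen median lay closer to that of all genes (-0.33 beside -0.08). The 3 comparisons share mice and are given side by side only.

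With LPS mice 6 and 7 left out, only LPS mouse 1 remained in its group, so changes are given here by size. Calls from that fit, here and below, are not to be set beside the shares over all genes, which were taken with all mice. The median log2 fold change of the collagen genes was then -0.33 beside -0.08 over all genes in LPS against control lungs. Between dual-treated and LPS lungs it was 0.16 beside 0.13, so most of the distance from all genes was gone. Among the 42 calls on collagen genes named by rule that involve LPS mice, 12 were then lost and 0 were reversed. The genes that lost their call in LPS against control lungs were Col3a1, Col4a3, Col4a5, Col6a1, Col6a4, Col13a1, Col14a1, Col25a1 and Col27a1. With 1 LPS mouse left, the log2 fold change was -0.31 for Col3a1, -0.20 for Col4a3, -0.21 for Col4a5 and -0.36 for Col6a1, each more than 1.5 times smaller than with all mice. It moved less for the other 5, to 1.49 for Col6a4, 0.64 for Col13a1, -0.45 for Col14a1, 2.21 for Col25a1 and -1.15 for Col27a1. Col12a1 moved to -0.66 and kept its call. The calls lost in dual-treated against LPS lungs were Col1a2 (0.37), Col6a1 (0.41), Col6a3 (1.55) and, outside the rule, Col6a5 (1.92). Calls were also gained, by 2 genes named after their values were seen. Col17a1 turned from 1.35 to -2.13 in LPS against control lungs and from -1.38 to 2.10 in dual-treated against LPS lungs. Col26a1 moved from 1.07 to 3.01 in the latter, on 2 counts in LPS mouse 1 and 24 and 21 in the dual-treated mice. Scaling by library size alone moved the median of all genes in LPS against control lungs from -0.01 to -0.29, and in dual-treated against LPS lungs from 0.06 to 0.38. The collagen medians moved along, to -0.66 and 0.60.

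The make-up of the collagen transcripts differed between the groups. All 44 genes together gave 3478, 3446 and 3584 CPM in control, 4996, 4033 and 4049 in LPS and 4421 and 3808 in dual-treated mice. As a percent of unscaled library counts they took 0.373, 0.371 and 0.380% in control, 0.405, 0.360 and 0.376% in LPS and 0.490 and 0.415% in dual-treated mice. LPS mice were thus above every control by the scaled level but overlapped the controls by the unscaled share, by which dual-treated mice were highest, so the order of the sums depends on the scaling. Fibrillar genes supplied 17.3, 20.2 and 18.4% of the collagen counts in the control mice, 8.73, 8.31 and 8.85% in the LPS mice and 20.6 and 18.4% in the dual-treated mice. Basement membrane genes supplied 61.6, 59.5 and 60.9% in control, 79.5, 78.7 and 78.8% in LPS and 66.0 and 60.0% in dual-treated mice. Col4a1 and Col4a2 alone supplied 46.9, 45.8 and 46.6% in control, 71.7, 71.2 and 71.1% in LPS and 57.4 and 48.0% in dual-treated mice, so the other 6 genes of that class took a smaller share in LPS than in control mice. The fibrillar share was thus lower and the basement membrane share higher in every LPS mouse than in any control or dual-treated mouse. The other chains supplied 21.1, 20.2 and 20.7% in control, 11.7, 13.0 and 12.4% in LPS and 13.3 and 21.6% in dual-treated mice. By this share dual-treated mouse 2 was just above the LPS mice and mouse 5 just above the controls. These shares are taken within each library and do not depend on the scaling between libraries.

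**Figure D1:**
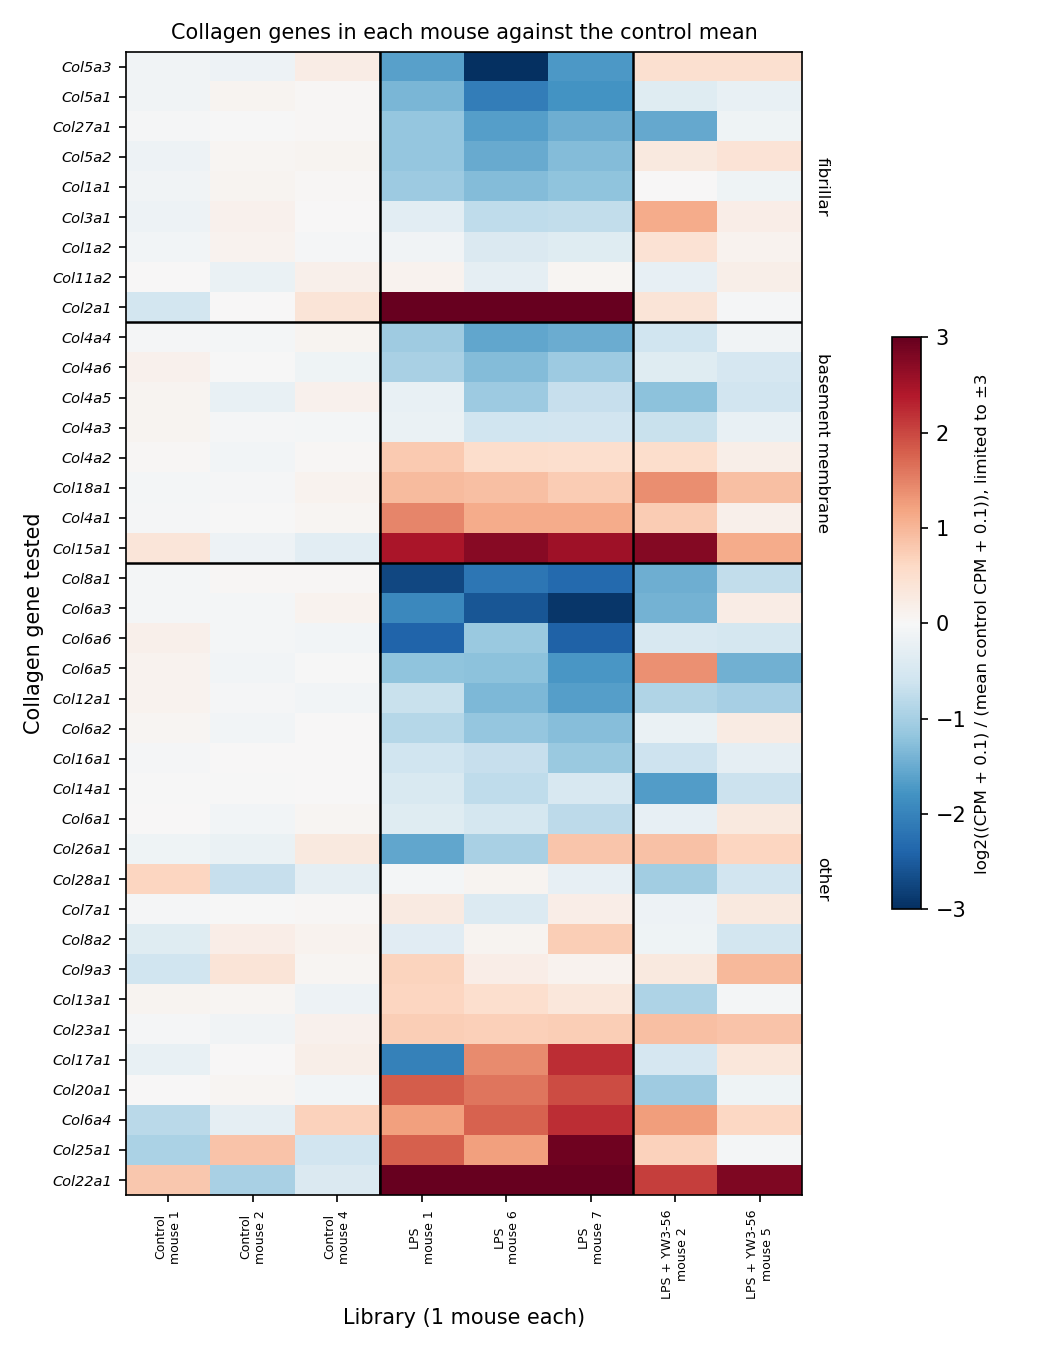
Rows are the 38 collagen genes tested, grouped by class and sorted by their log2 fold change in LPS against control lungs, columns are the 8 mice, and color gives log2 of CPM over the control mean (0.1 CPM added to both), limited to 3 in either direction. In the LPS columns most fibrillar rows are blue, with Col2a1 dark red as the exception, the basement membrane rows divide into 4 higher and 4 lower, and the dual-treated columns are paler than the LPS columns in most fibrillar rows.

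Most fibrillar genes fell in LPS lungs. Of the 9 tested, 6 were lower, 1 was higher and 2 did not pass, with a median log2 fold change of -1.20. With LPS mice 6 and 7 left out, Col3a1 (-0.31) and Col27a1 (-1.15) lost their calls. Against LPS lungs, 6 of the 9 were higher and 1 was lower in dual-treated lungs (median 1.14). Against control lungs 0 of the 9 passed in edgeR (median 0.27), while 2 were higher and 0 lower at an unadjusted p under 0.05, and DESeq2 called 1 higher. Without dual-treated mouse 5 edgeR called 1 higher and 1 lower. Over all genes tested, 32.6% were higher and 33.9% lower in LPS against control lungs. The shares over all genes were 31.7% and 27.4% in dual-treated against LPS lungs, and 9.13% and 7.02% in dual-treated against control lungs. Per kilobase of canonical transcript, Col3a1, Col1a2 and Col1a1 were the most abundant of the class over the 8 mice, at 32.4, 29.0 and 23.5 CPM per kb in control lungs. Col1a1, the major chain of collagen I, read 128.5, 147.5 and 142 CPM in the control mice, 65.2, 56.3 and 60.2 in the LPS mice and 139.6 and 127 in the dual-treated mice. All LPS mice lay below all others, and of the dual-treated mice 1 lay within and 1 just below the control range. The change was log2 fold change -1.20 ± 0.10 (SE), adjusted p = 6.61e-06, in LPS against control lungs. Dual-treated lungs differed from LPS lungs by 1.14 ± 0.11, adjusted p = 2.97e-05, and from control lungs by -0.06 ± 0.11, adjusted p = 0.745. Because lung tissue of mixed cells was sequenced, fewer collagen-producing cells and less collagen RNA per cell cannot be told apart.

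Col1a2, the partner chain of collagen I, read 148, 168 and 151 CPM in control, 145, 115 and 121.5 in LPS and 210.1 and 166 in dual-treated lungs. Every LPS mouse was below every control mouse but by a small margin, and the change of -0.29 ± 0.13, adjusted p = 0.0674, did not pass. Dual-treated lungs were above LPS lungs (0.57 ± 0.14, adjusted p = 0.00676). That call was lost without dual-treated mouse 2, where the log2 fold change was 0.36 (adjusted p from 0.00316 to 0.0589 over the 5 mice left out in turn). The pair of chains of collagen I thus moved by unequal amounts. The ratio of Col1a1 to Col1a2 counts within a library was 0.869, 0.880 and 0.942 in control, 0.450, 0.491 and 0.495 in LPS and 0.664 and 0.765 in dual-treated mice. The groups did not overlap by this ratio, with LPS lowest and dual treatment between, and no test was made of it. Of the collagen genes tested, Col1a2 shares the most exonic bases with another annotated gene, 1308 with Gm66266, and since the strand setting of the counting is not known, their reads cannot be told apart.

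Col3a1, the chain of collagen III in vessel walls and septa, read 161, 199 and 181 CPM in control, 145, 106.5 and 109 in LPS and 392 and 208 in dual-treated lungs. The LPS mice were lowest and dual-treated mouse 2 was far above all others, while mouse 5 was just above the control range. LPS lungs differed from control lungs by -0.59 ± 0.22, adjusted p = 0.0373. This call was lost without control mouse 2 or 4 or LPS mouse 6 or 7 (log2 fold change from -0.74 to -0.50 and adjusted p from 0.0208 to 0.115 over the 6 mice left out in turn). In dual-treated against LPS lungs the difference was 1.32 ± 0.24, adjusted p = 0.00123, and 0.77 without dual-treated mouse 2. Dual-treated against control lungs, the difference was 0.73 ± 0.24, adjusted p = 0.0684.

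Collagen V chains, which take part in setting the diameter of fibrils, were also lower in LPS against control lungs. Col5a1 read 50.5, 57.6 and 55.6 CPM in control, 21.1, 12.9 and 15.6 in LPS and 42.4 and 46.8 in dual-treated lungs. LPS mice were lowest, and dual-treated mice lay between them and the controls without overlap. Its change was -1.72 ± 0.16, adjusted p = 1.53e-05, in LPS against control lungs, and dual-treated lungs differed from LPS lungs by 1.43 ± 0.18, adjusted p = 0.000126. Col5a3 read 3.96, 3.85 and 4.97 CPM in control, 1.30, 0.289 and 1.23 in LPS and 5.95 and 5.97 in dual-treated lungs. LPS mice were again lowest, whereas both dual-treated mice were above the controls. Its change was -2.17 ± 0.42, adjusted p = 0.00127, in LPS against control lungs, and the difference between dual-treated and LPS lungs was 2.65 ± 0.44, adjusted p = 0.000734. Col5a2, named after its values were seen, lies tail to tail with Col3a1 on chromosome 1 and read 81.7, 95.2 and 95.7 CPM in control, 40.7, 31.6 and 36.7 in LPS and 110.5 and 121 in dual-treated lungs. Dual-treated mice were highest and LPS mice lowest, with -1.32 ± 0.12, adjusted p = 9.38e-06, in LPS against control lungs.

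Col27a1, a fibrillar chain best known from cartilage, read 22.3, 22.6 and 23.5 CPM in control, 10.2, 7.16 and 8.21 in LPS and 7.85 and 20.7 in dual-treated lungs. LPS mice and dual-treated mouse 2 were low, and dual-treated mouse 5 was just below the controls. Its change was -1.42 ± 0.30, adjusted p = 0.00238, in LPS against control lungs, and the difference of 0.75 ± 0.33, adjusted p = 0.0777, between dual-treated and LPS lungs did not pass. Col11a2 changed by -0.03 ± 0.22, adjusted p = 0.904, in LPS against control lungs, which did not pass. The untested Col24a1 had 13, 4 and 6 counts in the control libraries, 0 in every LPS library and 3 and 5 in the dual-treated libraries. Most of its control counts thus came from mouse 1, and LPS libraries were the only ones without a count.

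Col2a1, the chain of cartilage collagen II, went the other way. It read 0, 0.0469 and 0.0920 CPM in control, 2.73, 1.96 and 1.62 in LPS and 0.0908 and 0.0439 in dual-treated lungs, that is 3 counts over the control libraries, 109 over the LPS libraries and 3 over the dual-treated libraries. The LPS mice stood clear of the others, at a level still far below that of Col1a1 per kilobase (0.403 against 10.2 CPM per kb in LPS lungs). The scaled ratio of LPS to control counts was 44.3 (95% counting interval 14.8 to 218.1), and that of LPS to dual-treated counts was 31.3 (10.4 to 153.9), intervals that cover counting error only. Of the 3 control counts 2 came from mouse 4, without which the fitted log2 fold change against control moved from 5.30 to 6.12. The edgeR fit gave an adjusted p of 7.42e-05 against control and 0.000397 for dual-treated against LPS lungs. Col2a1 passed the count filter only through the LPS libraries, where it was high, so these values restate the counts and add no support. Of the 8 cartilage markers, 3 could be tested. Chad was lower in LPS against control lungs, and 0 of the 3 were higher, whether by adjusted or unadjusted p in edgeR or in DESeq2. Their sum was 23.4, 31.5 and 25.9 CPM in control, 18.3, 9.82 and 13.7 in LPS and 16.0 and 14.8 in dual-treated mice, led by Chad, so it was lower in every LPS and dual-treated mouse than in the controls. Without Chad the other 7 summed to 0.832, 1.17 and 1.01 CPM in control, 1.01, 1.21 and 0.502 in LPS and 2.50 and 1.89 in dual-treated mice, so LPS and control mice overlapped and both dual-treated mice were highest, and Acan was at 0 in all 8 libraries. Annotated genes overlap 445 bases of Col2a1 exons, and since the strand setting of the counting is not known, their reads cannot be told apart.

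Fibroblast markers were set beside the fibrillar genes, and the single markers named were chosen after their values were seen. Counts for this and the other marker lists stand beside 32.6% of all genes higher and 33.9% lower in LPS against control lungs, 9.13% and 7.02% in dual-treated against control lungs, and 31.7% and 27.4% in dual-treated against LPS lungs. Among the 10 lung fibroblast markers 5 were lower in LPS against control lungs and 5 did not pass, with 8 lower under scaling by library size alone. Dual treatment against control gave 6 lower markers, against 2 without control mouse 2 and 1 without dual-treated mouse 2. Their sum was 4191, 4305 and 4583 CPM in control, 1233, 1146 and 1026 in LPS and 2129 and 2939 in dual-treated mice, with Inmt the most abundant and no marker at 0 in all libraries. The other 9 markers without Inmt summed to 1256, 1347 and 1303 CPM in control, 1056, 984.5 and 881 in LPS and 882 and 774 in dual-treated mice. With Inmt the sum placed dual-treated mice between LPS and control mice, and without it 1 dual-treated mouse was within the LPS range and 1 below it, whereas Col1a1 was near the control level in both. Pdgfra, the general fibroblast receptor, changed by -0.34 ± 0.17, adjusted p = 0.116, in LPS against control lungs. Of the 6 activated fibroblast markers 5 were tested, and 2 were higher (Ccn2 and Fap) and 2 lower (Postn and Cthrc1) in LPS against control lungs. Only 1 was higher without any 1 control mouse or LPS mouse 1 or under scaling by library size or upper quartile, and 3 were higher and 1 lower with LPS mice 6 and 7 left out. Their sum, led by Ccn2, was 325, 326 and 333 CPM in control, 522, 268 and 352 in LPS and 241.5 and 218.5 in dual-treated mice, so LPS mice lay on both sides of the controls. The 4 mesothelial markers, led by Msln, summed to 497, 402 and 436.5 CPM in control, 386.5, 339.6 and 292 in LPS and 342 and 522 in dual-treated mice, and 3 of them were lower in LPS against control lungs, against 1 with LPS mice 6 and 7 left out. The part of these cell types in the fall of the fibrillar genes was not tested.

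**Figure D2:**
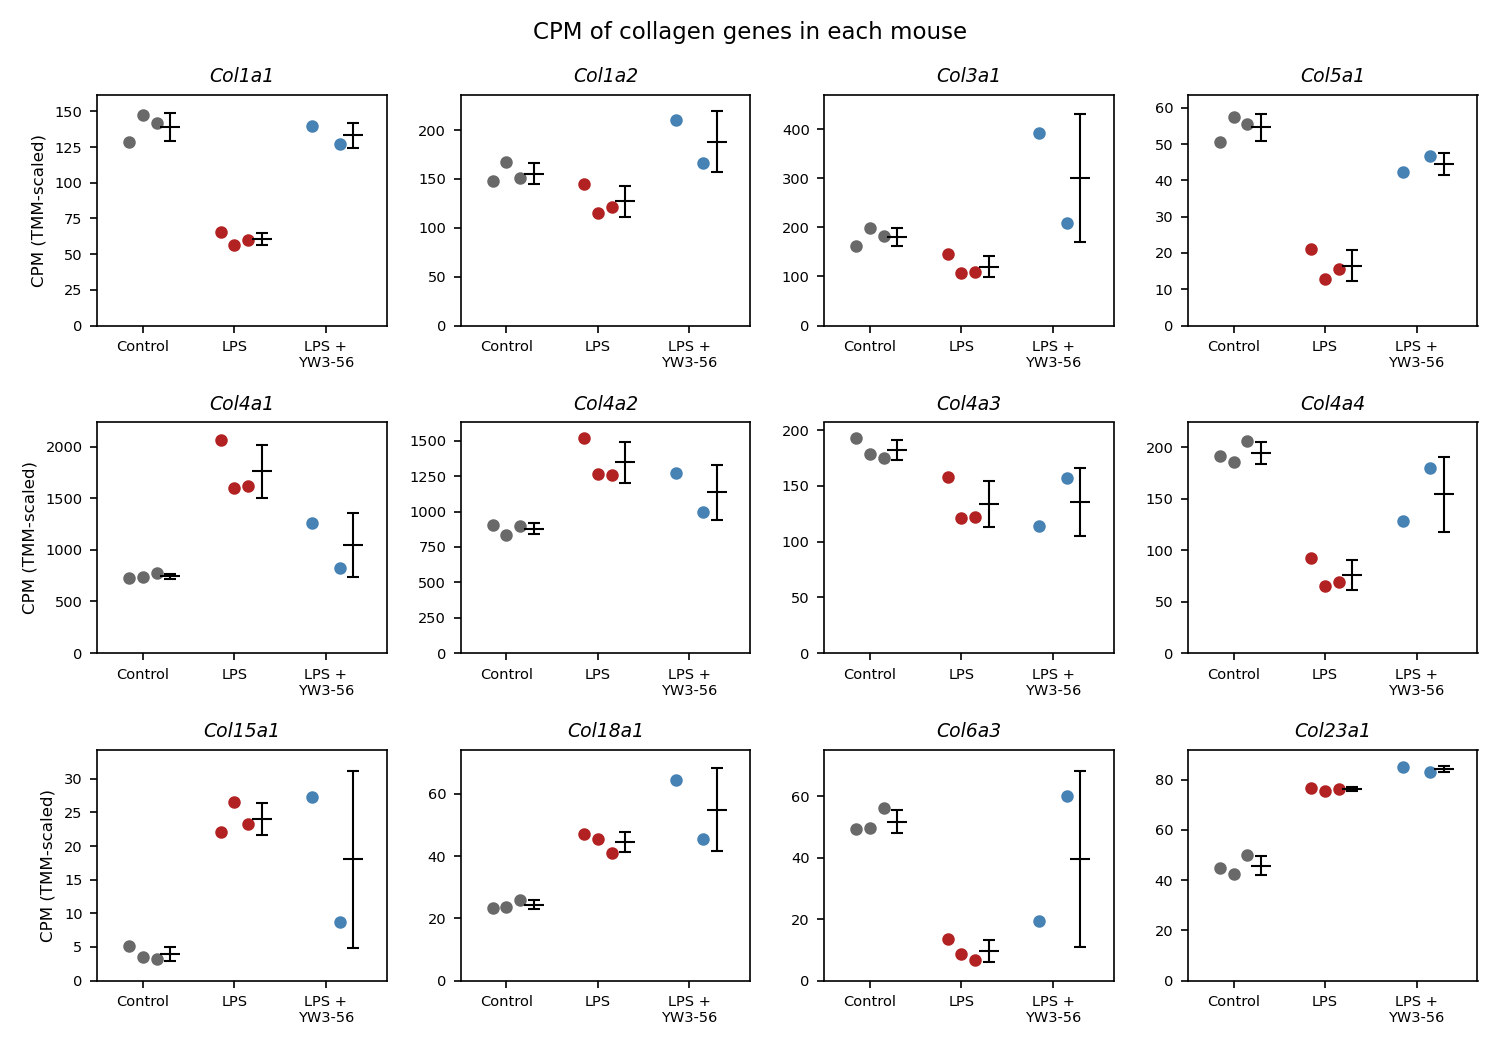
Each panel gives the TMM-scaled CPM of 1 collagen gene on a linear axis from 0, with 1 point per mouse and the group mean and SD as a bar beside the points (n = 3, 3 and 2). LPS points lie below the control points for Col1a1 and Col5a1 and above them for Col4a1, Col4a2, Col15a1, Col18a1 and Col23a1, and dual-treated mouse 2 lies above mouse 5 by a wide gap for Col3a1 and Col15a1 and below it for Col6a3.

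All 8 basement membrane genes passed the test in LPS against control lungs, 4 higher and 4 lower, with a median log2 fold change of 0.08. The lower calls were 2 without control mouse 1, LPS mouse 6 or LPS mouse 7, and 2 without both of these LPS mice. In dual-treated against LPS lungs 2 were higher and 1 lower (median -0.11), and without dual-treated mouse 2 the lower calls were 3. In dual-treated against control lungs 2 were higher (median 0.02) and 0 were lower in edgeR, with 3 lower at an unadjusted p under 0.05 and 1 in DESeq2, and 3 were lower in edgeR without dual-treated mouse 5. Beside these counts, 32.6% of all genes tested were higher and 33.9% lower in LPS against control lungs. The shares were 31.7% and 27.4% in dual-treated against LPS lungs, and 9.13% and 7.02% in dual-treated against control lungs. Col4a1, Col4a2 and Col4a3 had the highest levels per length of the class over the 8 mice. Col4a1 and Col4a2, whose products form the classical collagen IV of endothelial and other basement membranes, stood at 113 and 130.5 CPM per kb in control lungs and were above every other collagen there.

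Col4a1 read 725, 741 and 773 CPM in control, 2063, 1605 and 1623 in LPS and 1266 and 828 in dual-treated lungs. LPS mice were highest, and the dual-treated mice lay between them and the controls without overlap, mouse 5 close to the controls. The change was 1.24 ± 0.17, adjusted p = 0.000176, in LPS against control lungs. Dual-treated lungs differed from LPS lungs by -0.75 ± 0.20, adjusted p = 0.00868. Without dual-treated mouse 5 that difference was -0.50 and passed, and scaling by library size alone gave -0.41, which did not pass (adjusted p from 0.00102 to 0.0455 over the 5 mice left out in turn). Against control lungs it was 0.49 ± 0.19, adjusted p = 0.113. Col4a2 read 907, 835 and 898 CPM in control, 1518, 1268 and 1256 in LPS and 1272 and 999.5 in dual-treated lungs. Every LPS and dual-treated mouse was above the controls, and dual-treated mouse 2 reached the LPS range. Its change was 0.61 ± 0.14, adjusted p = 0.00282, in LPS against control lungs, while dual-treated lungs differed from LPS lungs by -0.25 ± 0.15, adjusted p = 0.184, which did not pass.

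Col4a1 thus changed 2.36-fold and Col4a2 1.53-fold in LPS against control lungs. The ratio of Col4a1 to Col4a2 counts was 0.799, 0.887 and 0.860 in control, 1.36, 1.26 and 1.29 in LPS and 0.996 and 0.829 in dual-treated mice. LPS mice were above all others by this ratio, dual-treated mouse 5 was within the control range, and no test was made of it. Both genes lie head to head on chromosome 8. Their canonical transcripts, from position 11362826 on the minus strand and 11362509 on the plus strand (GRCm39), overlap by 318 bases, where reads cannot be told apart without strand.

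Col4a3, Col4a4 and Col4a5 encode the chains of the second collagen IV network, which is laid down by alveolar epithelium and kidney podocytes, and all were lower in LPS lungs. Col4a3 read 193, 178.5 and 175 CPM in control, 158, 121 and 122 in LPS and 114 and 157 in dual-treated lungs. All LPS and dual-treated mice were below the controls, and these groups overlapped each other. Its change was -0.45 ± 0.15, adjusted p = 0.0221, in LPS against control lungs. The call was lost without control mouse 1, LPS mouse 6 or LPS mouse 7 (log2 fold change from -0.57 to -0.37 and adjusted p from 0.00612 to 0.0788 over the 6 mice left out in turn). Col4a4 read 191, 186 and 206 CPM in control, 92.4, 65.5 and 68.9 in LPS and 129 and 180.4 in dual-treated lungs. LPS mice were lowest and dual-treated mice lay between them and the controls. Its change was -1.36 ± 0.16, adjusted p = 6.27e-05, in LPS against control lungs, and dual-treated lungs differed from LPS lungs by 1.03 ± 0.18, adjusted p = 0.000858. The ratio of Col4a3 to Col4a4 counts was 1.01, 0.959 and 0.850 in control, 1.71, 1.85 and 1.77 in LPS and 0.884 and 0.871 in dual-treated mice. LPS mice stood above the others by this ratio, dual-treated mice were in the control range, and again no test was made. Col4a3 and Col4a4 also lie head to head, on chromosome 1, with canonical transcripts that overlap by 104 bases, and 1002 exonic bases of Col4a3 are shared with Col4a4 or C430014B12Rik.

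Col4a5 read 78.0, 64.1 and 80.6 CPM in control, 63.9, 35.05 and 46.0 in LPS and 31.5 and 50.1 in dual-treated lungs. All LPS mice were below the controls, mouse 1 by a hair, and the dual-treated mice lay lower as well. LPS lungs differed from control lungs by -0.62 ± 0.23, adjusted p = 0.0354, a call that was lost without control mouse 1 or 4 or LPS mouse 6 or 7 (log2 fold change from -0.86 to -0.43 and adjusted p from 0.00578 to 0.116 over the 6 mice left out in turn). Dual-treated lungs differed from control lungs by -0.86 ± 0.26, adjusted p = 0.0511, which did not pass. Col4a6, which pairs with Col4a5 in the basement membrane of smooth muscle and airways, read 21.6, 19.5 and 18.1 CPM in control, 9.97, 7.91 and 9.27 in LPS and 15.2 and 14.0 in dual-treated lungs. LPS mice were lowest and dual-treated mice lay between the other groups without overlap. Its change was -1.12 ± 0.14, adjusted p = 8.45e-05, in LPS against control lungs, and 0.69 ± 0.15, adjusted p = 0.00395, in dual-treated against LPS lungs.

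**Figure D3:**
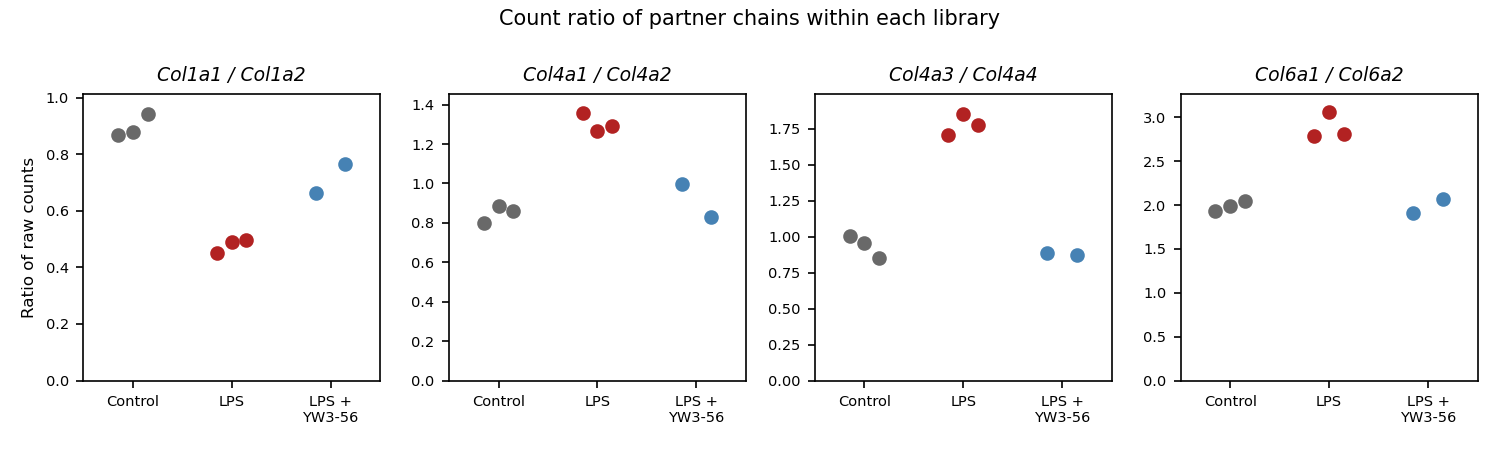
Each panel gives the ratio of the raw counts of 2 partner chains within each library, on a linear axis from 0, with 1 point per mouse in the control (n = 3), LPS (n = 3) and dual-treated (n = 2) groups. In LPS lungs the ratio of Col1a1 to Col1a2 lies below, and those of Col4a1 to Col4a2, Col4a3 to Col4a4 and Col6a1 to Col6a2 lie above, those of all control mice.

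The remaining basement membrane genes encode the multiplexins, which carry glycosaminoglycan chains and release antiangiogenic fragments such as endostatin. Col15a1 read 5.14, 3.52 and 3.17 CPM in control, 22.1, 26.6 and 23.3 in LPS and 27.4 and 8.65 in dual-treated lungs. All LPS and dual-treated mice were above the controls, and dual-treated mouse 5 was well below mouse 2. Its change was 2.60 ± 0.38, adjusted p = 0.000235, in LPS and 2.19 ± 0.40, adjusted p = 0.00683, in dual-treated against control lungs. The dual-treated change was 1.10 without dual-treated mouse 2 and passed over the 5 mice left out in turn. Col18a1, the source of endostatin, read 23.2, 23.8 and 26.0 CPM in control, 47.0, 45.4 and 41.0 in LPS and 64.4 and 45.5 in dual-treated lungs. Controls were lowest without overlap and dual-treated mouse 2 was the highest of all. Its change was 0.87 ± 0.14, adjusted p = 0.000341, in LPS and 1.18 ± 0.15, adjusted p = 0.000921, in dual-treated against control lungs. Col18a1 shares 896 exonic bases with Slc19a1, whose reads may be counted with it.

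Endothelial and alveolar markers were set beside the type IV genes. Of the 8 endothelial markers 5 were lower in LPS against control lungs and 3 did not pass, and 5 were higher in dual-treated against LPS lungs. With LPS mice 6 and 7 left out 1 was higher in LPS against control lungs, and 4 were higher and 1 lower in dual-treated against LPS lungs. Their sum was 4041, 4445 and 4635 CPM in control, 2495, 2066 and 1973 in LPS and 3616 and 3919 in dual-treated mice, with none at 0 in all libraries. Cdh5 led the list over the 8 mice and in every LPS mouse, Ptprb in every control mouse and Pecam1 in both dual-treated mice. By group mean, Col4a1 and Col4a2 were highest in LPS lungs, where the endothelial sum was lowest. Dual-treated mouse 2 was within the LPS range for Col4a2. Within the list, by genes named after their values were seen, Kdr, a VEGF receptor, changed by -2.60 ± 0.13, adjusted p = 6.16e-07, in LPS against control lungs, while the junction gene Cdh5 changed by 0.17 ± 0.17, adjusted p = 0.382. Of the 6 alveolar type 1 markers 1 was higher (Pdpn) and 2 were lower (Rtkn2 and Aqp5) in LPS against control lungs, with 5 lower under scaling by library size alone. Their sum, led by Ager, was 4340, 3973 and 4129 CPM in control, 3981, 3323 and 2278 in LPS and 2289 and 2840 in dual-treated mice, with LPS mouse 1 just within the control range and the other treated mice below it. Of the 5 alveolar type 2 markers 4 were lower, against 2 without control mouse 4, LPS mouse 6 or LPS mouse 7, and 1 without both LPS mice. Their sum, led by Sftpc, was 35137, 29229 and 36806 CPM in control, 25387, 17536 and 14095 in LPS and 17132 and 28126 in dual-treated mice, with LPS mice below every control. Of the 8 smooth muscle and pericyte markers 1 was higher (Acta2) and 3 were lower in LPS against control lungs. The higher calls were 2 without control mouse 2 and 0 with LPS mice 6 and 7 left out, when 4 were lower, and 0 under scaling by library size alone. Their sum, led by Pdgfrb over the 8 mice but by Acta2 or Des in each LPS mouse, was 528.5, 646 and 564 CPM in control, 427, 493 and 581 in LPS and 425 and 444 in dual-treated mice, with LPS mouse 7 within the control range and the other treated mice below it. Des read 77.7, 128.6 and 183 CPM in the LPS mice, the same order as their skeletal muscle sum. Acta2, Myh11 and Tagln shared that order, and the part of muscle transcripts in the sum of mouse 7 was not tested. The part of these cell types in the type IV values was not tested.

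Of the 25 other collagen genes, 21 were tested, and 6 were higher and 8 lower in LPS against control lungs (median -0.07). Over all genes 32.6% were higher and 33.9% lower there. The shares were 31.7% and 27.4% in dual-treated against LPS lungs, and 9.13% and 7.02% in dual-treated against control lungs. With LPS mice 6 and 7 left out, Col6a1 (-0.36), Col6a4 (1.49), Col13a1 (0.64), Col14a1 (-0.45) and Col25a1 (2.21) lost their calls. Col17a1 then turned to -2.13. In dual-treated against LPS lungs 6 were higher and 3 lower (median 0.14), with 5 lower without LPS mouse 1. In dual-treated against control lungs 2 were higher and 3 lower (median -0.03). The higher calls were 1 without control mouse 4. The lower calls were 5 without dual-treated mouse 5 and were lost without any 1 control mouse or dual-treated mouse 2. Per length, Col6a1, Col6a2 and Col13a1 were the most abundant, at 71.0, 24.5 and 12.1 CPM per kb in control lungs. Among the 6 beaded filament genes 4 were lower and 1 higher in LPS against control lungs. Col6a1 read 295, 275 and 304 CPM in control, 225.5, 202 and 170.0 in LPS and 245 and 357 in dual-treated lungs. The LPS mice were lowest, and the dual-treated mice lay on either side of the control range. Its change was -0.55 ± 0.16, adjusted p = 0.0111, in LPS against control lungs, and the difference between dual-treated and LPS lungs was 0.59 ± 0.17, adjusted p = 0.0143. The latter was lost without dual-treated mouse 5 (log2 fold change 0.28, with adjusted p from 0.00224 to 0.183 over the 5 mice left out in turn).

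Col6a2, also on chromosome 10, read 153, 138 and 148 CPM in control, 81.0, 66.0 and 60.5 in LPS and 128 and 173 in dual-treated lungs. LPS mice were lowest without overlap and dual-treated mice lay on either side of the controls. Its change was -1.08 ± 0.14, adjusted p = 0.000118, in LPS against control lungs, and dual-treated lungs differed from LPS lungs by 1.12 ± 0.15, adjusted p = 0.000251. Col6a3, which completes the collagen VI monomer, read 49.3, 49.8 and 56.1 CPM in control, 13.5, 8.66 and 6.75 in LPS and 19.4 and 60.0 in dual-treated lungs. LPS mice were lowest, dual-treated mouse 2 was nearer to them and mouse 5 was above the controls. Its change was -2.42 ± 0.39, adjusted p = 0.000405, in LPS against control lungs. Dual-treated lungs differed from LPS lungs by 2.04 ± 0.41, adjusted p = 0.00216, or 0.99 without dual-treated mouse 5. The ratio of Col6a3 to Col6a1 counts was 0.167, 0.181 and 0.185 in control, 0.0600, 0.0429 and 0.0397 in LPS and 0.0794 and 0.168 in dual-treated mice. Dual-treated mouse 2 was close to the LPS mice by this ratio and mouse 5 was within the control range.

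Alternative chains can replace Col6a3. Of these, Col6a6 read 0.832, 0.704 and 0.690 CPM in control, 0.0593, 0.289 and 0.0558 in LPS and 0.499 and 0.483 in dual-treated lungs. It was lowest in LPS mice and highest in controls without overlap. Its change was -2.41 ± 0.62, adjusted p = 0.00699, in LPS against control lungs, or -3.55 without LPS mouse 6. The difference between dual-treated and LPS lungs was 1.82 ± 0.69, adjusted p = 0.0446. That call was lost without LPS mouse 1 or 7 or either dual-treated mouse. It was also lost in DESeq2, with RLE factors, with no filter and with only the compared groups fitted. The difference was 2.96 without LPS mouse 6 and 2.92 without LPS mice 6 and 7. Col6a4 read 0.0979, 0.188 and 0.460 CPM in control, 0.712, 1.10 and 1.51 in LPS and 0.726 and 0.439 in dual-treated lungs. LPS mice were above the controls, and dual-treated mouse 2 was just above LPS mouse 1. Its change was 2.12 ± 0.59, adjusted p = 0.0103, in LPS against control lungs, or 2.90 without control mouse 4. Its counts were 2, 4 and 10 in control, 12, 19 and 27 in LPS and 16 and 10 in dual-treated libraries. Outside the LPS group only dual-treated mouse 2 exceeded 10 counts. Col6a4 thus entered the test through the group where it was high, and the call adds no support to the counts. Col6a5, named after its values were seen, read 1.47, 1.27 and 1.33 CPM in control, 0.534, 0.520 and 0.335 in LPS and 3.68 and 0.439 in dual-treated lungs, with dual-treated mouse 2 the highest of all and mouse 5 within the LPS range. The difference between dual-treated and LPS lungs (2.14 ± 0.72, adjusted p = 0.0286) was lost without any 1 LPS mouse and was -0.10 without dual-treated mouse 2 (adjusted p from 0.000632 to 0.901).

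Of the short-chain network genes, Col8a1, a vessel wall collagen, read 11.4, 12.3 and 12.3 CPM in control, 1.72, 2.60 and 2.29 in LPS and 4.27 and 7.20 in dual-treated lungs. The 3 groups did not overlap, with LPS lowest and dual-treated between. Its change was -2.44 ± 0.25, adjusted p = 2.22e-05, in LPS against control lungs, and dual-treated lungs differed from LPS lungs by 1.38 ± 0.27, adjusted p = 0.00176. The difference between dual-treated and control lungs was -1.06 ± 0.26, adjusted p = 0.0232. That call was lost without any 1 of the control mice or dual-treated mouse 2 (log2 fold change from -1.52 to -0.77 and adjusted p from 0.00872 to 0.15 over the 5 mice left out in turn).

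The FACIT collagens decorate fibril surfaces. Col12a1, a FACIT of tendon and stressed matrix, read 49.3, 45.0 and 43.7 CPM in control, 28.9, 17.9 and 14.5 in LPS and 24.4 and 22.8 in dual-treated lungs. Controls were highest without overlap and the treated groups overlapped each other. Its change was -1.17 ± 0.21, adjusted p = 0.000983, in LPS and -0.96 ± 0.24, adjusted p = 0.026, in dual-treated against control lungs. The latter was lost without any 1 of the 5 mice compared (adjusted p from 0.0508 to 0.0913). Col14a1, its close relative, read 20.8, 20.6 and 21.1 CPM in control, 15.2, 12.3 and 14.8 in LPS and 6.49 and 13.3 in dual-treated lungs. Here too the controls were highest, and dual-treated mouse 2 was the lowest of all. In LPS against control lungs the change was -0.56 ± 0.23, adjusted p = 0.0495, lost without any 1 of the 6 mice (adjusted p from 0.0656 to 0.146). For dual treatment against control it was -1.07 ± 0.26, adjusted p = 0.0223, lost without any 1 control mouse or dual-treated mouse 2 (log2 fold change from -1.71 without dual-treated mouse 5 to -0.68 without mouse 2, and adjusted p from 0.000784 to 0.0629). Col8a1, Col12a1 and Col14a1 made up the lower calls of the family in dual-treated against control lungs.

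Col16a1, a FACIT named after its values were seen, read 29.4, 30.0 and 30.4 CPM in control, 19.8, 18.5 and 13.8 in LPS and 19.5 and 24.9 in dual-treated lungs. LPS mice were below every control, with -0.79 ± 0.15, adjusted p = 0.00138, in LPS against control lungs. Col22a1, a FACIT of the muscle-tendon junction, went up. It read 0.245, 0 and 0.0460 CPM in control, 5.52, 4.97 and 6.03 in LPS and 0.726 and 1.27 in dual-treated lungs, and its control libraries held 5, 0 and 1 counts. The LPS libraries were highest, and the dual-treated libraries lay between without overlap. The fitted change was 5.77 ± 0.62, adjusted p = 3.39e-05, in LPS and 3.32 ± 0.71, adjusted p = 0.0129, in dual-treated against control lungs. Without control mouse 1 these were 7.54 and 5.09, and the latter was lost without control mouse 4 (adjusted p from 0.00549 to 0.0573 over the 5 mice left out in turn). Dual-treated lungs differed from LPS lungs by -2.45 ± 0.55, adjusted p = 0.00378. In LPS mouse 1, whose skeletal muscle marker sum was within the control range, the value of 5.52 CPM was between those of mice 6 and 7. Col20a1, a further FACIT named after its values were seen, read 6.85, 7.04 and 6.39 CPM in control, 24.1, 20.8 and 26.4 in LPS and 3.18 and 6.19 in dual-treated lungs. LPS mice were far above all others, with 1.81 ± 0.22, adjusted p = 7.64e-05, in LPS against control lungs, and dual-treated lungs differed from LPS lungs by -2.34 ± 0.27, adjusted p = 8.1e-05.

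Of the 4 transmembrane collagens 3 were higher in LPS against control lungs, against 1 without control mouse 4. Without both LPS mice 6 and 7, 1 was higher (Col23a1) and 1 lower (Col17a1) in LPS against control lungs, and Col17a1 was higher in dual-treated against LPS lungs. Col23a1 read 44.9, 42.6 and 49.8 CPM in control, 76.9, 75.6 and 76.5 in LPS and 85.0 and 83.2 in dual-treated lungs. Controls were lowest without overlap, and the dual-treated mice were above every LPS mouse. Its change was 0.74 ± 0.09, adjusted p = 5.31e-05, in LPS and 0.88 ± 0.09, adjusted p = 0.000426, in dual-treated against control lungs. Col13a1, a cell surface collagen of adhesion sites, read 41.0, 40.7 and 35.04 CPM in control, 60.5, 55.1 and 48.9 in LPS and 20.6 and 37.6 in dual-treated lungs. LPS mice were highest and dual-treated mouse 2 was lowest. LPS lungs differed from control lungs by 0.49 ± 0.19, adjusted p = 0.045. The call held without LPS mouse 7 and was lost without each of the 5 other mice (adjusted p from 0.0396 to 0.135), and was also lost under scaling by library size (0.20) or upper quartile (0.40). Dual-treated lungs differed from LPS lungs by -0.91 ± 0.22, adjusted p = 0.00614, or by -0.57 without dual-treated mouse 2 and -1.43 without mouse 5.

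Col25a1, a neuronal and muscle collagen, read 0.0489, 0.422 and 0.0920 CPM in control, 0.890, 0.578 and 2.06 in LPS and 0.363 and 0.176 in dual-treated lungs. LPS mouse 7 was highest, and the LPS values lay above the controls by a narrow margin. LPS lungs differed from control lungs by 2.61 ± 0.78, adjusted p = 0.0142. That call was lost without control mouse 4 or LPS mouse 7, and the change was 3.94 without control mouse 2 (adjusted p from 0.00503 to 0.0605 over the 6 mice left out in turn). Only the LPS libraries held at least 10 counts of Col25a1. It thus entered the test through the group where it was high, and the call adds no support to the counts. Col17a1, the hemidesmosome collagen of squamous and airway basal cells, is named after its values were seen. It read 3.77, 4.50 and 5.06 CPM in control, 1.01, 12.0 and 20.9 in LPS and 3.09 and 5.62 in dual-treated lungs. LPS mice 6 and 7 were high and LPS mouse 1 the lowest of all, the same order as by the squamous marker sum against the controls. The change of 1.35 ± 0.73, adjusted p = 0.13, in LPS against control lungs did not pass, and its sign turned with LPS mice 6 and 7 left out, to a lower call of -2.13. Apart from Col1a2 and Col17a1, the members that did not pass in LPS against control lungs were Col6a5, Col7a1, Col8a2, Col9a3, Col11a2, Col26a1 and Col28a1. Over all 9 the log2 fold changes ran from -1.54 to 1.35.

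Taken by their calls in the 3 comparisons, 11 genes were lower in LPS against control lungs, higher in dual-treated against LPS lungs and passed in neither direction in dual-treated against control lungs. They were Col1a1, Col3a1, Col4a4, Col4a6, Col5a1, Col5a2, Col5a3, Col6a1, Col6a2, Col6a3 and Col6a6. Another 4 genes, Col2a1, Col4a1, Col13a1 and Col20a1, were higher in LPS against control lungs, lower in dual-treated against LPS lungs and did not pass in dual-treated against control lungs. Col15a1, Col18a1 and Col23a1 were higher in both treated groups than in control lungs and did not pass between them. These comparisons share libraries, so a call in 1 bears on the others, and not passing does not show that levels were equal. The share of all genes with each of these patterns was not taken, so the counts describe the members only. The dual-treated mice also differed from each other. Over the 33 collagen genes with a mean of at least 1 CPM, 5 differed over 2-fold between the dual-treated mice, against 0 to 2 for each pair of mice within the other groups. Over all genes, LPS mice 1 and 7 differed about as much as the dual-treated mice (chi-square per degree of freedom 43.9 and 44.9).

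Genes that modify and fold collagen chains were mostly lower in LPS lungs. Beside this and the following lists stand the shares over all genes tested, 32.6% higher and 33.9% lower in LPS against control lungs, and 31.7% higher and 27.4% lower in dual-treated against LPS lungs. The list has 17 genes, and 12 were lower and 2 higher in LPS against control lungs (median -0.68), and 11 were higher and the other 6 did not pass in dual-treated against LPS lungs (median 0.60). The 2 higher calls were 0 without control mouse 2, and 1 without control mouse 1 or 4 or LPS mouse 1 or 6, and 0 under scaling by library size or upper quartile. P4hb, the disulfide isomerase subunit of prolyl hydroxylase and the most abundant of the list per length, read 394, 424 and 454 CPM in control, 519, 539 and 556 in LPS and 665 and 565 in dual-treated lungs. Controls were below both treated groups, with 0.34 ± 0.11, adjusted p = 0.0191, in LPS against control lungs, a call lost without control mouse 1 or 2 (adjusted p from 0.0213 to 0.084). Ppib, a cyclophilin of the same compartment, had the highest change of those that passed (0.43 ± 0.14, adjusted p = 0.0227), lost without control mouse 2 or 4 or LPS mouse 1 or 6 (adjusted p from 0.00138 to 0.0859). Colgalt2, a collagen galactosyltransferase, had the lowest change and read 13.4, 15.9 and 19.7 CPM in control, 2.19, 1.56 and 1.79 in LPS and 6.26 and 14.0 in dual-treated lungs. Its LPS values were far below all others, with -3.14 ± 0.32, adjusted p = 2.43e-05. Serpinh1, which encodes Hsp47 and is named after its values were seen, read 324, 378 and 424 CPM in control, 158, 161 and 149.8 in LPS and 286.5 and 297 in dual-treated lungs. LPS values were lowest and dual-treated mice lay below the controls, with -1.26 ± 0.12, adjusted p = 1.2e-05, in LPS against control and 0.90 ± 0.13, adjusted p = 0.000262, in dual-treated against LPS lungs.

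Among the 9 tested genes of procollagen export and processing, 4 were higher and 4 lower in LPS against control lungs (median 0.23), and with LPS mice 6 and 7 left out 3 were higher and 2 lower. Pcolce, an enhancer of C-propeptide cleavage and the most abundant per length, changed by -0.62 ± 0.17, adjusted p = 0.00957. Adamts3, a procollagen N-proteinase, read 1.27, 1.55 and 1.10 CPM in control, 11.8, 12.7 and 12.4 in LPS and 3.63 and 2.15 in dual-treated lungs. LPS mice were highest and dual-treated mice lay between them and the controls, with 3.23 ± 0.25, adjusted p = 4.73e-06, in LPS against control lungs. Pcolce2, a relative of Pcolce, read 123, 137 and 152 CPM in control, 54.4, 28.6 and 28.5 in LPS and 25.4 and 52.4 in dual-treated lungs. It was low in both treated groups, with -1.89 ± 0.30, adjusted p = 0.000432, in LPS against control lungs. Among the 7 cross-linking genes 2 were higher and 3 lower (median 0.27), with 1 higher without control mouse 2 or 4, LPS mouse 7 or both LPS mice 6 and 7, and under scaling by library size alone. Tgm2, a transglutaminase, was the most abundant of them and had the highest change, and read 375.5, 316 and 354 CPM in control, 1843, 1381 and 1217 in LPS and 412 and 456 in dual-treated lungs. LPS mice stood above all others, with 2.09 ± 0.17, adjusted p = 5.54e-06, and the lowest change was that of the lysyl oxidase Loxl4 (-1.15 ± 0.19, adjusted p = 0.000564).

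Of the 12 fibril partners, 3 were higher and 6 lower in LPS against control lungs (median -0.40), with 1 higher without control mouse 4 or under scaling by library size alone. Sparc, a collagen-binding glycoprotein and the most abundant per length, changed by -0.24 ± 0.16, adjusted p = 0.204, which did not pass. At the ends of the range were small leucine-rich proteoglycans. Lum read 2.50, 4.18 and 4.46 CPM in control, 9.02, 9.12 and 8.37 in LPS and 2.40 and 1.01 in dual-treated lungs. LPS mice were highest and the dual-treated mice were below the lowest control, with 1.25 ± 0.32, adjusted p = 0.00614, in LPS against control lungs. Aspn read 8.56, 9.57 and 9.10 CPM in control, 0.771, 1.502 and 1.73 in LPS and 6.40 and 5.97 in dual-treated lungs. The lowest values were those of the LPS mice, with -2.76 ± 0.27, adjusted p = 1.92e-05. Of the 15 basement membrane partners 3 were higher and 4 lower in LPS against control lungs (median -0.21), with 7 lower without LPS mouse 1 and 9 lower under scaling by library size alone. With all mice and TMM scaling, both shares were below those over all genes, a difference that was not tested. The laminin chain Lamc3 had the lowest change (-2.25 ± 0.26, adjusted p = 4.9e-05).

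Of the 10 collagen receptors 1 was higher and 6 were lower in LPS against control lungs (median -0.64), and the single higher call, Lair1, was lost without control mouse 2 or LPS mouse 6, without LPS mice 6 and 7 together and under scaling by library size alone. Itgb1, the shared beta chain of the collagen integrins, was the most abundant per length and changed by 0.11 ± 0.11, adjusted p = 0.382, which did not pass. Lair1, an inhibitory leukocyte receptor, changed by 1.12 ± 0.36, adjusted p = 0.0206, in LPS against control lungs, or 0.64 without LPS mouse 6 (adjusted p from 0.00676 to 0.0871). Its change in dual-treated against control lungs was 2.96 ± 0.39, adjusted p = 0.00118. Mrc2, an endocytic collagen receptor, had the lowest change (-2.05 ± 0.30, adjusted p = 0.000233) in LPS against control lungs. Of the 6 collagen-degrading enzymes 5 were higher in LPS against control lungs and 1 did not pass (median 1.13). Mmp14, a membrane collagenase, was the most abundant per length (0.70 ± 0.10, adjusted p = 0.00019). Mmp8, the neutrophil collagenase, read 5.04, 2.86 and 4.14 CPM in control, 26.9, 51.7 and 21.7 in LPS and 68.6 and 73.2 in dual-treated lungs. Controls were lowest and dual-treated mice highest without overlap, with 3.06 ± 0.33, adjusted p = 3.51e-05, in LPS and 4.14 ± 0.36, adjusted p = 0.000136, in dual-treated against control lungs. Ctsk, a lysosomal collagenase, had the lowest change among those that passed (0.64 ± 0.18, adjusted p = 0.0118).

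Leukocyte markers were set beside the enzymes. The 6 markers, led by Csf1r over the 8 mice but by Ptprc in the LPS mice, summed to 202.5, 185 and 204 CPM in control, 244, 288 and 224 in LPS and 468 and 663 in dual-treated mice. Of the 6, 3 were higher in LPS against control lungs and 1, Csf1r, was lower, with 2 lower without LPS mouse 1 and 3 lower under scaling by library size alone. Dual-treated against control lungs, 4 of the 6 were higher. The part of leukocytes in the enzyme and receptor values was not tested.

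Promoters of the members were read from the GRCm39 assembly as the 250 bases before the canonical transcript start. In these windows, 5 short motifs were searched on both strands. CCAAT, the box bound by NF-Y, was present in 15 of the 44 collagen promoters (34.1%), beside 36.5% of 21770 promoters of protein-coding genes of the same length. GGGCGG, the core of the GC box, was present in 21 (47.7%, beside 36.3%), and TATAAA, the TATA box, in 7 (15.9%, beside 11.9%). TGANTCA, the AP-1 motif with N for any base, was present in 0 of 44, beside 6.17%, and a loose form of the NF-kappaB motif in 1, beside 1.47%. CCAAT was present in 6 of the 11 promoters of genes that rose in LPS against control lungs and in 6 of the 18 of genes that fell. GGGCGG was present in 4 of the 11 and 10 of the 18, and TATAAA in 1 and 2. A match describes only the letters in this window, and no match says only that these letters are not in it. Windows free of annotated exons are given 5 prime to 3 prime on the strand of the gene for members that moved in different ways, with motif matches in capitals. Col15a1 (chr4:47207332-47207581, plus strand) and Col22a1 (chr15:71906096-71906345, minus strand) rose in both treated groups. Col4a5 (chrX:140258104-140258353, plus strand) and Col4a6 (chrX:140257073-140257322, minus strand) fell in LPS lungs and start 1281 bases apart in opposite directions. GGGCGG appears as CCGCCC where the match is on the other strand.
Col4a5: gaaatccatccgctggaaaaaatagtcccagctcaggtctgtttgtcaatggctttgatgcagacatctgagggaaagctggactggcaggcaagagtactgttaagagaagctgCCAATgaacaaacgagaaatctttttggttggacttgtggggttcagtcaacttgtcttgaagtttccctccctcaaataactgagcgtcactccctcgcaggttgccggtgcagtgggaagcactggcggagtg
Col4a6: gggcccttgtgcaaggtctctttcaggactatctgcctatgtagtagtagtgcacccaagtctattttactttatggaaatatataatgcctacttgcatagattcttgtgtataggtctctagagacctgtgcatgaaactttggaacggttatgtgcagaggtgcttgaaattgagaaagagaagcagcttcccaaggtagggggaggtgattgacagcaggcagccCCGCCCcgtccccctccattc
Col15a1: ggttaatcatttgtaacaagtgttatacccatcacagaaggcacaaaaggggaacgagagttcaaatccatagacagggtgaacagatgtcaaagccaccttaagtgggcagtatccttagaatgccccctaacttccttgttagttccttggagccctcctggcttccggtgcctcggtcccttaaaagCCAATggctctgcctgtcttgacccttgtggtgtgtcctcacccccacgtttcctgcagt
Col22a1: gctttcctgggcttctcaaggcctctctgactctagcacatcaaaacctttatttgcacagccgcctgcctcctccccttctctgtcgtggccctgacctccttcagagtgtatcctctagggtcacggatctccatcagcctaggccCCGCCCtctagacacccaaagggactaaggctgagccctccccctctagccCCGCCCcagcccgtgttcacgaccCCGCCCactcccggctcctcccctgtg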

How the data were processed

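Lung RNA-seq of 8 mice was used as raw gene counts, which the authors deposited per library. According to the submitters' processing notes, FastQC 0.11.9, Trim Galore, HISAT2 2.2.1 and featureCounts 2.0.1 were used with build GRCm39. The annotation release, strand setting and handling of multi-mapped reads are not given in the sources used here. Symbols, canonical transcripts and overlaps came from GENCODE M39, which matched 54749 of the 55416 identifiers, and those not matched held 0.0533% of counts. Counts were fitted with edgeR 4.0.16 in R 4.3.3 (TMM, filterByExpr, quasi-likelihood test, 1 group factor over 8 libraries, 5 residual degrees of freedom, Benjamini-Hochberg over 18560 genes), and with DESeq2 1.42.0 as an alternative. Standard errors were the absolute log2 fold change over the root of F. The fit was tested on simulated data. Replicates of a group differed by more than sampling noise, so each counted as 1 sample. Named by rule were, per class, the 3 genes highest per length and those with the 3 highest and 3 lowest log2 fold changes among adjusted p under 0.05, in LPS and in dual-treated against control lungs, and per pathway list the most abundant, highest and lowest gene. Members and lists were chosen with earlier results of these data known. The study's methods give 3 mice per group for sequencing, while the labels and the legend of the study's figure give 2 dual-treated mice.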

Additional observations from a re-analysis of the deposited data

How the results depend on the processing

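In LPS against control lungs, the 11 higher collagen genes were 7 under the study's criterion as applied to edgeR's fit (p under 0.05 before adjustment, fold change above 2), 7 with at least 10 counts required in every library and 4 when the test was made against a fold change of 2, and 9 to 11 with 1 mouse left out in turn. The 18 lower genes were 8 when tested against a fold change of 2, and 14 to 18 with 1 mouse left out. The median of -0.37 was -0.66 under scaling by library size only and -0.52 with at least 10 counts in every library, and -0.48 to -0.29 with 1 mouse left out. In dual-treated against control lungs, the 4 higher genes were 0 in edgeR's test against a fold change of 2 (3 at an unadjusted p under 0.05, and 5 in DESeq2's usual test) and 3 to 7 with 1 mouse left out. The 3 lower genes were 0 against a fold change of 2 (0 unadjusted, and 4 in DESeq2's usual test) and 0 to 9 with 1 mouse left out, and the median of 0.01 was -0.17 with at least 10 counts in every library and -0.22 to 0.043 with 1 mouse left out. In dual-treated against LPS lungs, the 14 higher genes were 4 against a fold change of 2 and 12 to 13 with 1 mouse left out, the 5 lower genes were 3 with at least 10 counts in every library, 3 against a fold change of 2 and 5 to 7 with 1 mouse left out, and the median of 0.26 was 0.60 under library size only, 0.16 with LPS mice 6 and 7 left out and 0.14 to 0.40 with 1 mouse left out. The test against a fold change of 2 and the study's criterion ask for larger changes, and the count minimum tests fewer genes, 30 of them collagens, while for the other settings the cause was not tested. Of 49 calls on collagen genes named by rule, 16 were lost under the study's criterion, 34 against a fold change of 2, 2 with library size only, 2 with RLE factors, 1 with upper quartile factors, 1 with no filter, 1 with only the compared groups fitted and 1 in DESeq2, and 0 of 38 with at least 10 counts in every library. Of these 49 calls, on genes named by rule, 0 were reversed under any setting. Outside that tally are Col5a2, Col6a5, Col16a1 and Col20a1, named after their values were seen, of which Col6a5 in dual-treated against LPS lungs went from 2.14 to -0.10 without dual-treated mouse 2. With LPS mice 6 and 7 left out, Col17a1 and Col26a1, also named after their values were seen, gained calls, and Col17a1 changed sign in LPS against control lungs (1.35 to -2.13) and in dual-treated against LPS lungs (-1.38 to 2.10). Where leaving out a mouse left 1 in its group, that lone sample was assumed to vary like the other groups. No paired analysis was made, because each library came from a different mouse and the labels pair no mice across groups. Depth limits Col2a1, Col5a3, Col6a4, Col6a5, Col6a6, Col22a1, Col25a1 and Col26a1, which had few counts in at least 1 group or library.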
